A study of Mus musculus with 2 samples.

Results

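AMPA receptors carry most of the fast excitatory current at hippocampal synapses, and 10 genes of this receptor were followed across the cell classes of mouse dorsal CA1 in chronic epilepsy. They are Gria1, Gria2, Gria3 and Gria4, which encode the pore-forming subunits, and Cacng2, Cacng3, Cacng8, Shisa9, Cnih2 and Cnih3, which encode auxiliary subunits. The genes were taken by symbol, and all 10 were found among the 30431 genes of the deposited matrices. The epilepsy library came from Calb1::Cre x Tdtomato male mice on C57BL/6J that were given kainate at 5 mg/kg in hourly repeats until status epilepticus began, followed by diazepam at 4 mg/kg. The control library came from male mice of the same cross, also 6 to 7 weeks old at the start, that received vehicle in place of kainate. No diazepam dose is listed for the control mice. Both were collected 12 weeks after status, when the treated mice were in the chronic phase. Nuclei were isolated from dissected dorsal CA1, 15000 were sorted for each library, and 3′ transcript ends were counted as unique molecular identifiers (UMIs). The labels name 2 mice per condition and do not state if both entered its library. Each condition is thus represented by 1 library, and no difference between conditions could be tested.

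An AMPA receptor is a tetramer, and its subunit mix sets how fast it closes and whether calcium passes. The Gria2 subunit, once its transcript has been edited at the Q/R site of the pore, blocks calcium entry; receptors without it pass calcium, as is known for many parvalbumin interneurons. The transmembrane AMPA receptor regulatory proteins (TARPs, here Cacng2, Cacng3 and Cacng8), the Shisa proteins and the cornichons (Cnih2 and Cnih3) bind around the pore, carry the receptor to the synapse and slow or speed its gating.

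The pore loop stretch around the Q/R site is shown for the 4 pore subunits because this codon is where Gria2 transcripts are edited and because all 4 genes are compared below. Each line gives 45 bases of the coding strand, 5′ to 3′, from the GENCODE M21 transcripts of GRCm38, with the Q/R-site codon in capitals. The stretch lies in coding exon sequence, at chr11:57243073-57243117 on the plus strand (Gria1, exon 11 of 16), chr3:80706890-80706934 on the minus strand (Gria2, exon 11 of 16), chrX:41610244-41610288 on the plus strand (Gria3, exon 11 of 16) and chr9:4464116-4464160 on the minus strand (Gria4, exon 12 of 17). The stretch differs from that of Gria2 at 9 bases in Gria1, at 3 in Gria3 and at 6 in Gria4. The genes span chr11:57011387-57330244 (Gria1), chr3:80681450-80802835 (Gria2), chrX:41400854-41678601 (Gria3) and chr9:4417896-4796234 (Gria4). The auxiliary subunits lie at chr15:77991748-78120028 (Cacng2), chr7:122670492-122769393 (Cacng3), chr7:3390683-3415648 (Cacng8), chr16:11984113-12270902 (Shisa9), chr19:5092868-5098521 (Cnih2) and chr1:181352628-181460641 (Cnih3), all protein coding. The counts tally transcript 3′ ends and do not read the edited base.
Gria1: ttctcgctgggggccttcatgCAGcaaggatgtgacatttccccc
Gria2: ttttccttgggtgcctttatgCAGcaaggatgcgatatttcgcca
Gria3: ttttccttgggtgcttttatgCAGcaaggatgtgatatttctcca
Gria4: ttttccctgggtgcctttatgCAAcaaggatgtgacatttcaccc

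The epilepsy library held 3078 nuclei and 7112131 UMIs (median 2443 per nucleus), and the control library held 3661 nuclei and 11858162 UMIs (median 3447), so control nuclei held more UMIs at the median. The libraries shared 16 barcodes. With the top 3% of nuclei by doublet score removed per library, 2986 epilepsy and 3551 control nuclei were clustered with the 10 genes and 35 listed AMPA receptor pathway genes left out of the clustering. CA1 pyramidal nuclei numbered 2321 in the epilepsy library and 2780 in the control library. Of these, 817 and 1015 were superficial CA1 and 516 and 712 were deep CA1; the marker Calb1 stood at 39.9 UMIs per 1000000 UMIs of the class (CPM) in superficial against 9.53 in deep nuclei of the epilepsy library, and at 47.0 against 5.73 CPM in the control library. Interneurons numbered 143 and 197, among them 58 and 83 expressing markers of medial ganglionic eminence (MGE) origin and 48 and 60 expressing markers of caudal ganglionic eminence (CGE) origin. Oligodendrocyte precursors numbered 37 and 24 in a cluster that also carried Bcas1, a marker of committed precursors (1861 and 2100 CPM). Dentate granule nuclei numbered 14 in the epilepsy library and 153 in the control library; the 14 had a median of 743.5 UMIs and 1 UMI of the granule marker Prox1, so their levels are given but no ratio is drawn from them. UMIs of CA1 pyramidal markers, which free RNA can give, were also found in the other classes: the summed level of 10 such markers reached 64.5% of the pyramidal level in epilepsy microglia and 85.3% in control microglia, and 51.8% of the pyramidal level in epilepsy oligodendrocytes and 61.2% in control oligodendrocytes, with 23.8% and 24.3% in interneurons. In oligodendrocyte precursors it was 9.92% and 13.1%, on 10 and 11 UMIs, with 6 and 5 of the 10 markers at 0.

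Levels were ordered over 13 classes, glia, interneurons of neither family and pyramidal nuclei of no sublayer included. In both libraries Gria2 was highest in deep CA1, Gria4 in MGE interneurons and Shisa9 in CGE interneurons. The interval of Shisa9 in control CGE interneurons overlapped that in control granule nuclei. In the control library Cacng3 and Cnih2 were highest in microglia (269 and 39.9 CPM, on 27 and 4 UMIs). The summed pyramidal markers there reached 85.3% of the pyramidal level. In the epilepsy library these 2 genes were highest in pyramidal classes. Gria1 was highest in superficial CA1 in the epilepsy library (5470 CPM), whereas in control superficial CA1 (4541 CPM) stood just under the pyramidal nuclei of no sublayer (4600 CPM). Gria2, which makes receptors impermeable to calcium once edited, varied least across classes among the pore subunits. It ran from deep CA1, at 1749 CPM in epilepsy and 1901 CPM in control, down to interneurons of neither family at 458 and 582 CPM, a 3.82-fold span in epilepsy and a 3.27-fold span in control. MGE interneurons held it at 774 and 925 CPM, and most neighbouring classes had overlapping counting intervals. Gria3 had its highest levels in MGE interneurons (1135 and 1303 CPM) and deep CA1 (1131 and 1301 CPM), whose intervals overlapped, and was low in CGE interneurons (181 and 290 CPM).

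**Figure D1:**
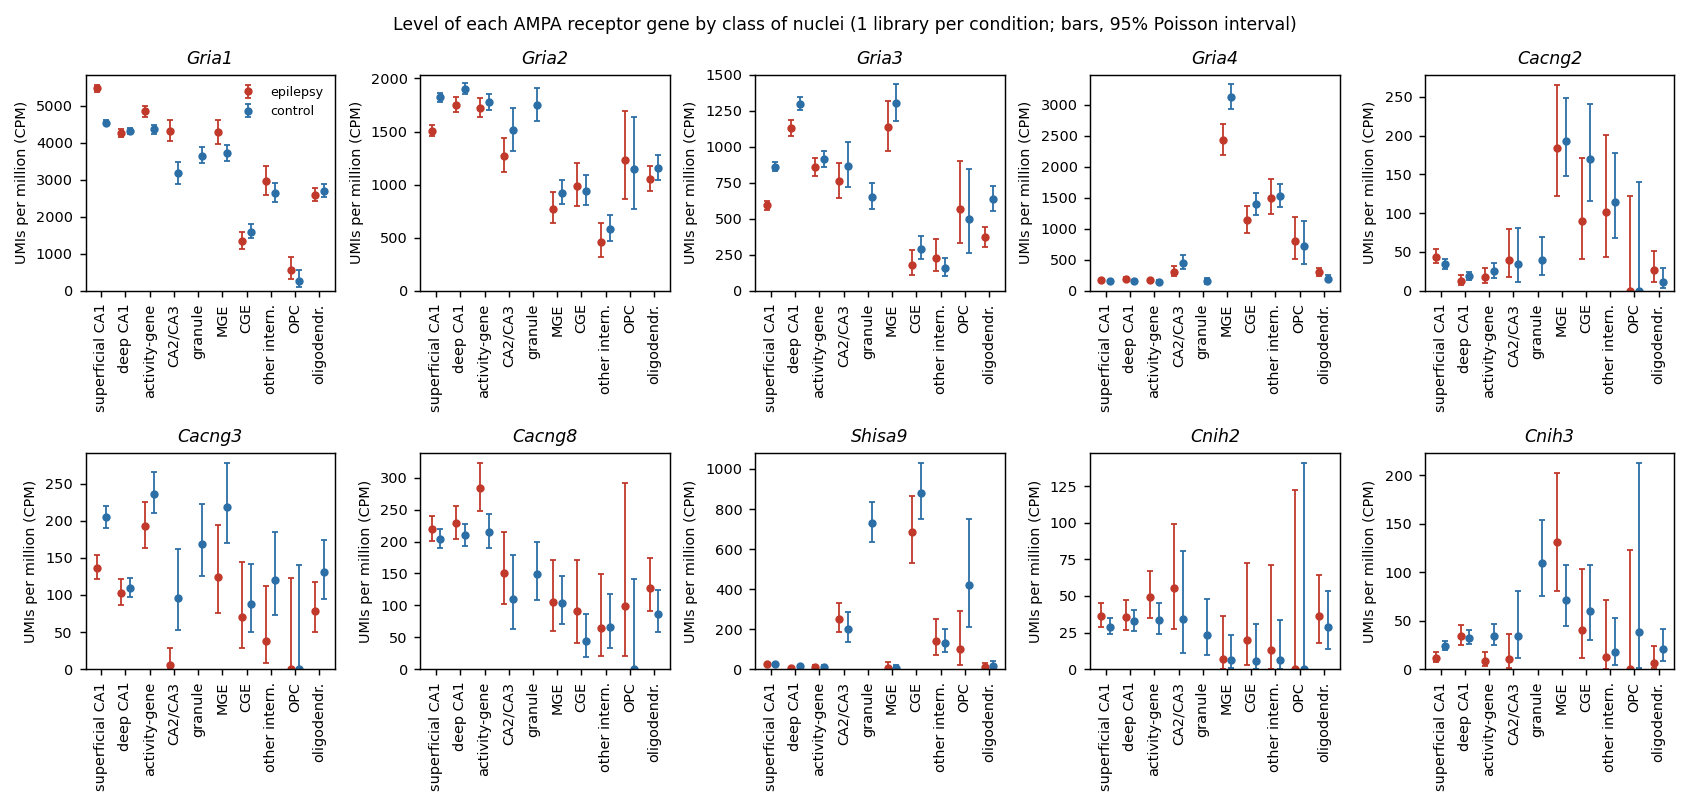
Level of each gene in CPM (y axis, 1 panel per gene with its own scale) in 10 classes of nuclei (x axis), with the epilepsy library in red and the control library in blue; bars are exact 95% Poisson intervals, and the 14 epilepsy granule nuclei are not drawn. Gria4 stood far higher in MGE interneurons (2435 and 3128 CPM) than in superficial CA1 (176 and 150 CPM), and Shisa9 was high in CGE interneurons and control granule nuclei.

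The epilepsy and control libraries were first compared over all CA1 pyramidal nuclei. Gria3, Cacng3 and Cnih3 were lower in the epilepsy library and Cnih2 was higher, each past the fold threshold, a log2 ratio of 0.32 in either direction. Gria1, Gria2, Gria4, Cacng2, Cacng8 and Shisa9 stayed within it. Thus 4 of 10 genes were past the threshold (1 higher, 3 lower). Of 9200 genes with at least 100 UMIs over both libraries in these nuclei, 28.4% were past it too (14.2% higher and 14.1% lower). The median log2 ratio of the 10 genes was -0.05, against -0.01 over all genes. Past 1.5-fold stood Cnih3 alone among the 10, with 9.24% of all genes beyond that fold. All intervals given are 95% intervals that cover counting error within these libraries and not the spread between mice.

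Among the pore subunits, Gria1 stood at 5093 CPM in epilepsy and 4469 CPM in control pyramidal nuclei, a log2 ratio of 0.19 (interval 0.17 to 0.21). Gria2 stood at 1615 CPM in epilepsy and 1851 CPM in control nuclei, a log2 ratio of -0.20 (-0.23 to -0.16). The counts fixed both differences narrowly, and both lay within the threshold. Gria3, which forms receptors mainly together with Gria2 in pyramidal cells, had 4537 UMIs (780 CPM) in epilepsy and 9731 UMIs (1008 CPM) in control nuclei. It was thus 1.29-fold lower in the epilepsy library (log2 ratio -0.37, interval -0.42 to -0.32). Gria4, a fast-gating subunit prominent in interneurons, was at 178 CPM in epilepsy and 150 CPM in control nuclei (log2 ratio 0.25). Gria3 was also lower in oligodendrocyte nuclei, at 370 CPM in epilepsy and 638 CPM in control (log2 ratio -0.78, -1.12 to -0.45), where the pyramidal markers summed to 51.8% and 61.2% of their pyramidal level. The part of free RNA in this difference was not tested.

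Of the TARPs, Cacng8, the main TARP of hippocampal pyramidal cells, stood at 235 CPM in epilepsy and 212 CPM in control nuclei (log2 ratio 0.15). Cacng3, a TARP of forebrain neurons, stood at 134 CPM in epilepsy and 180 CPM in control nuclei and was 1.35-fold lower (log2 ratio -0.43, interval -0.56 to -0.31). Cacng2, known as stargazin, stood at 31.8 CPM in epilepsy and 29.6 CPM in control nuclei. Among the UMIs of these 3 TARPs, Cacng8 therefore took 58.7% in epilepsy and 50.3% in control pyramidal nuclei, and Cacng3 took 33.4% and 42.7%. Shisa9, which modulates desensitisation and was described in dentate granule cells, stood at 20.6 CPM in epilepsy and 24.3 CPM in control nuclei (log2 ratio -0.24, interval -0.57 to 0.08).

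The cornichons lay on opposite sides. Cnih2, which slows AMPA receptor gating in hippocampal pyramidal cells, had 245 UMIs (42.1 CPM) in epilepsy and 299 UMIs (31.0 CPM) in control nuclei, a log2 ratio of 0.44 (0.19 to 0.69). Cnih3, its close homologue, had 101 UMIs (17.4 CPM) in epilepsy and 301 UMIs (31.2 CPM) in control nuclei and was 1.80-fold lower (log2 ratio -0.84, -1.18 to -0.52). Cnih2 made up 70.8% of the UMIs of the pair in epilepsy and 49.8% in control nuclei. When each nucleus was thinned to 1000 UMIs, the Cnih2 ratio was 0.16, within the threshold, and it was 0.31 without the pyramidal nuclei that no sublayer could be given to.

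**Figure D2:**
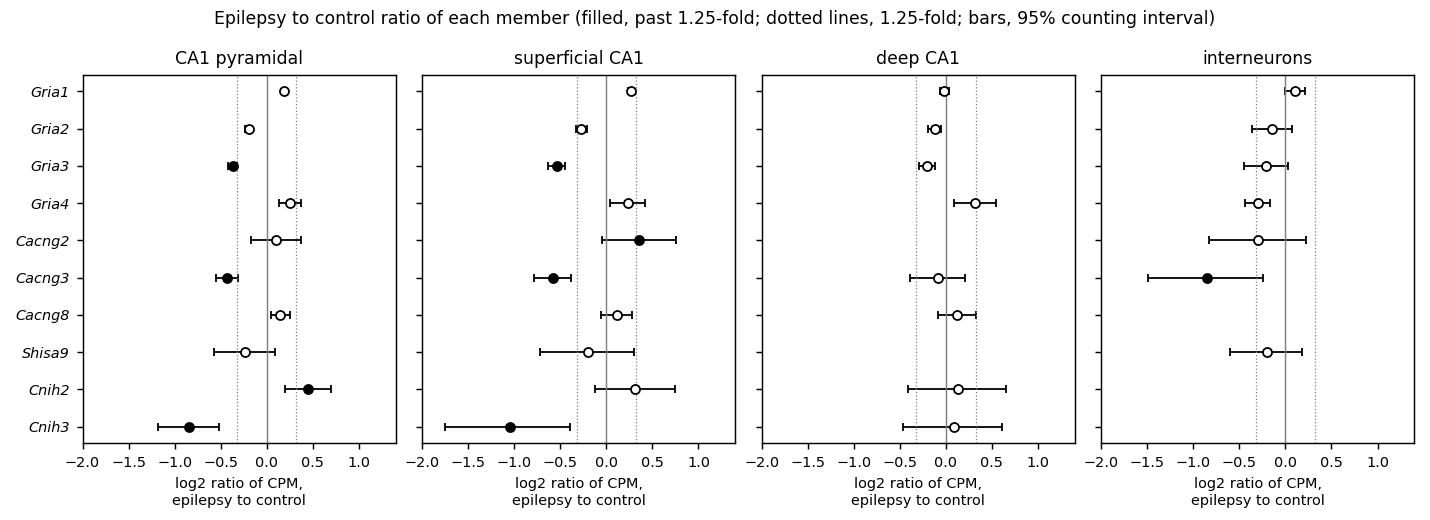
Log2 ratio of CPM, epilepsy to control (x axis), for each gene (y axis) in CA1 pyramidal, superficial CA1, deep CA1 and interneuron nuclei; bars are 95% counting intervals, filled points are past the fold threshold, which dotted lines mark, and genes under 100 UMIs are not drawn. Filled points for Gria3, Cacng3 and Cnih3 lie left of the line at 0 in superficial CA1 and none is filled in deep CA1.

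The sublayers were then taken one at a time. In superficial CA1, Gria3, Cacng3 and Cnih3 were lower and Cacng2 was higher in the epilepsy library, 4 of 10 genes past the fold threshold, against 28.2% of 6264 genes (14.5% higher and 13.7% lower). Past 1.5-fold stood Cnih3 alone among the 10, with 7.73% of all genes. In deep CA1, 0 of the 8 genes with enough UMIs were past the fold threshold, against 29.7% of 4891 genes (12.8% higher and 16.9% lower). The lower levels were not confined to superficial CA1. Pyramidal nuclei of no sublayer also had Gria3, Cacng3 and Cnih3 lower and Cnih2 higher past the threshold. Cnih3 had 22 UMIs in epilepsy and 87 UMIs in control nuclei of no sublayer. The median log2 ratio of the genes counted was -0.04 in superficial CA1 (0.01 over all genes) and 0.03 in deep CA1 (-0.02 over all genes). Whether the epilepsy to control difference itself differs between sublayers was not tested, since each sublayer has 1 library per condition.

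Gria3 stood at 594 CPM in epilepsy and 863 CPM in control superficial nuclei (log2 ratio -0.54, -0.63 to -0.45). In deep nuclei it stood at 1131 CPM in epilepsy and 1301 CPM in control (log2 ratio -0.20, -0.29 to -0.11), so the 2 intervals did not overlap. Both superficial clusters gave like Gria3 ratios, -0.54 in the cluster led by Pcdh7 and Grik4 and -0.53 in the cluster led by Tenm3 and Lingo2. Cacng3 stood at 137 CPM in epilepsy and 205 CPM in control superficial nuclei (log2 ratio -0.58, -0.78 to -0.39). Its deep levels were 103 CPM in epilepsy and 109 CPM in control (log2 ratio -0.09, -0.39 to 0.21). The Cacng3 ratios of the Pcdh7 and Tenm3 clusters were -0.66 and -0.48.

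Gria1 was at 5470 CPM in epilepsy and 4541 CPM in control superficial nuclei (log2 ratio 0.27, 0.23 to 0.30), and at 4260 CPM in epilepsy and 4310 CPM in control deep nuclei (-0.02, -0.06 to 0.03). Gria2 was at 1509 CPM in epilepsy and 1822 CPM in control superficial nuclei (log2 ratio -0.27), and at 1749 CPM in epilepsy and 1901 CPM in control deep nuclei (-0.12). Both genes stayed within the threshold in both sublayers, except that Gria2 in superficial nuclei reached -0.36 with TMM factors. Cnih3 had 25 UMIs (11.6 CPM) in epilepsy and 88 UMIs (23.9 CPM) in control superficial nuclei, a log2 ratio of -1.05 (-1.75 to -0.39). In deep nuclei Cnih3 stood at 34.4 CPM in epilepsy and 32.5 CPM in control (0.08, -0.46 to 0.61). Cacng2 had 94 UMIs (43.6 CPM) in epilepsy and 125 UMIs (34.0 CPM) in control superficial nuclei, and its interval reached past 0 (log2 ratio 0.36, -0.04 to 0.76). Cnih2, at 36.2 CPM in epilepsy and 29.1 CPM in control superficial nuclei, lay just within the threshold (0.31) and past it under 5 alternatives (0.34 to 0.57).

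Taken as shares of the summed Gria1 to Gria4 UMIs, which need no library scaling, Gria1 made up 70.6% in epilepsy and 61.6% in control superficial nuclei. Gria2 made up 19.5% (interval 18.9 to 20.1) in epilepsy and 24.7% (24.2 to 25.2) in control superficial nuclei, and Gria3 made up 7.66% and 11.7%. The epilepsy superficial nuclei thus held a larger Gria1 share and smaller Gria2 and Gria3 shares than the control ones. In deep nuclei the Gria1 share was 58.1% in epilepsy and 56.2% in control, the Gria2 share 23.8% and 24.8%, and the Gria3 share 15.4% and 17.0%. These are shares of UMIs, which depend on transcript length and priming, and do not give receptor stoichiometry.

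**Figure D3:**
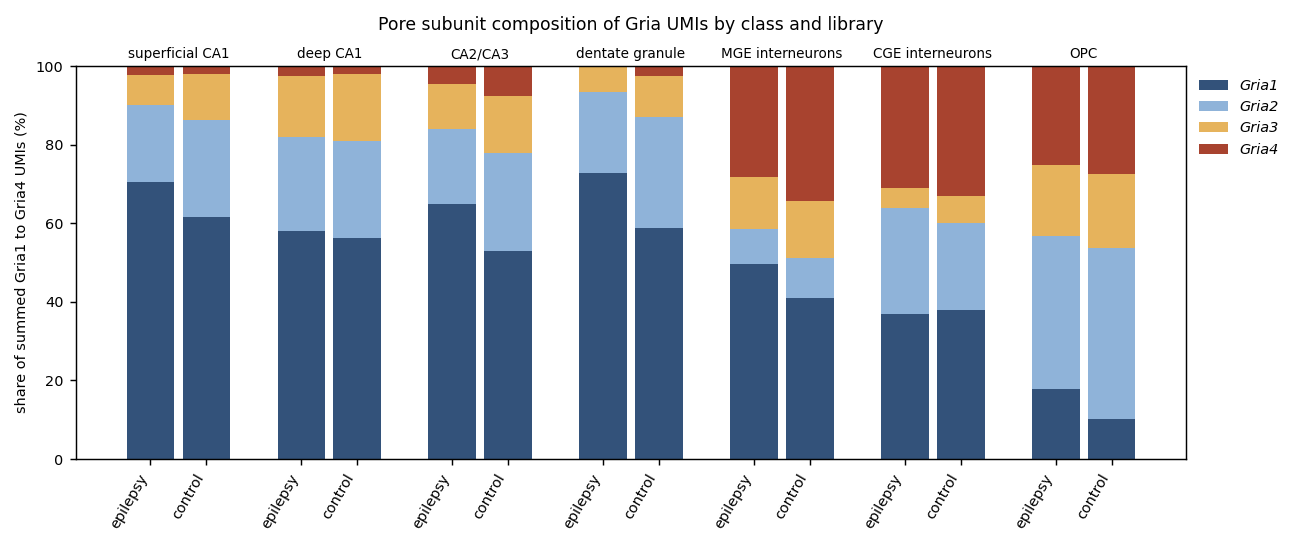
Share of the summed Gria1 to Gria4 UMIs taken by each subunit (y axis, percent) in 7 classes, epilepsy left and control right in each pair. Gria4 is near 2% to 3% in superficial and deep CA1 and takes 28.2% (epilepsy) and 34.4% (control) in MGE interneurons; the epilepsy granule bar rests on 92 UMIs.

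Superficial and deep CA1 pyramidal cells are known to differ in connections and firing, and the 10 genes were set side by side between them within each library. Cacng2 and Cacng3 were higher in superficial than in deep CA1 in both libraries and Gria3 was lower, 3 of 8 genes with enough UMIs (2 higher, 1 lower). Among 4603 genes, 19.3% were past the threshold in the same direction in both libraries (11.6% higher and 7.65% lower). Past 2-fold in both libraries stood 0 of the 8, and 3.08% of all genes.

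Gria3 was at 594 CPM in superficial and 1131 CPM in deep nuclei of the epilepsy library, a log2 ratio of -0.93 (-1.04 to -0.82). In the control library it was at 863 CPM in superficial and 1301 CPM in deep nuclei (-0.59, -0.66 to -0.52). Gria3 was thus lower in superficial nuclei of both libraries, and the intervals of the 2 ratios did not overlap. The Cacng3 ratio was 0.41 (0.12 to 0.72) in the epilepsy library, with 137 CPM in superficial and 103 CPM in deep nuclei. In the control library it was 0.91 (0.71 to 1.11), with 205 CPM in superficial and 109 CPM in deep nuclei. The epilepsy ratio of Cacng3 fell within the threshold at Leiden resolution 0.5 (0.29) and after thinning (0.18). For Cacng2 the ratio was 1.72 (0.99 to 2.54) in the epilepsy library, on 94 superficial and 18 deep UMIs, and 0.86 (0.37 to 1.37) in the control library, on 125 superficial and 49 deep UMIs. Cacng8 did not separate the sublayers (log2 ratio -0.05 in the epilepsy library and -0.04 in the control library), and the ratios of Gria4, Gria2 and Cnih2 lay within the threshold. Gria1 was 1.28-fold higher in superficial nuclei of the epilepsy library and 1.05-fold higher in those of the control library.

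Pyramidal nuclei of a further cluster were marked by the activity genes Fos, Btg2 and Junb and numbered 290 in the epilepsy library and 325 in the control library. Against deep CA1, Cacng3 was higher there (log2 ratio 0.91 in the epilepsy library and 1.12 in the control library) and Gria3 was lower (-0.40 and -0.51). Against superficial CA1, Cacng2 was lower in both libraries (-1.34 and -0.45), while neither Cacng3 (0.50 and 0.21) nor Gria3 (0.53 and 0.08) was past the threshold in both. Between conditions, Cacng8 in these nuclei stood at 284 CPM in epilepsy and 215 CPM in control (log2 ratio 0.40), whereas Gria3 differed by -0.09 and Cacng3 by -0.29 on the log2 scale. Cnih3 had 7 UMIs in epilepsy and 41 UMIs in control nuclei of this cluster, under the 100 UMIs needed for a ratio.

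Interneurons were set against CA1 pyramidal nuclei within each library. Gria4, Cacng2, Shisa9 and Cnih3 were higher in interneurons and Gria1, Gria2, Cacng8 and Cnih2 were lower, past the threshold in both libraries, 8 of 10 genes. Among 6469 genes, 43.6% met the same rule (22.8% higher and 20.8% lower). Not all of these held in each interneuron family. MGE interneurons were lower than pyramidal nuclei in Shisa9, and Gria1 was not past the threshold in both libraries there. Interneurons of neither family were lower in Cnih3, but on 1 UMI in epilepsy and 3 UMIs in control. These counts are at or under the floor of 3, so no family difference is read from them. Gria4 and Cacng2 were higher, and Gria2 and Cacng8 lower, in MGE, CGE and remaining interneurons alike. Cacng8 rested on 5 epilepsy and 11 control UMIs in the remaining interneurons. Cnih2 was lower in each family too, but on 1 or 2 UMIs per family and library, too few to compare families. Gria4 stood at 1822 CPM in interneurons and 178 CPM in pyramidal nuclei of the epilepsy library, a 10.2-fold difference (log2 ratio 3.35, 3.20 to 3.50). In the control library it stood at 2245 CPM in interneurons and 150 CPM in pyramidal nuclei (log2 ratio 3.91, 3.80 to 4.01). Gria2 stood at 763 CPM in interneurons and 1615 CPM in pyramidal nuclei of the epilepsy library (log2 ratio -1.08), and at 843 and 1851 CPM in the control library (-1.13). Interneurons thus held many times the pyramidal level of Gria4 and a lower level of Gria2. With free RNA taken off the interneuron sums, an alternative added after the data were seen, the Gria2 ratio was -1.81 in the epilepsy library and -1.65 in the control library, and 8 genes were again past the threshold, with no Cnih2 left in interneurons. The sizes changed more: 11 single-gene ratios moved beyond the counting interval of the reported value and 7 did not.

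Among the auxiliary subunits, Cacng2 was at 136 CPM in interneurons and 31.8 CPM in pyramidal nuclei of the epilepsy library (log2 ratio 2.10), and at 167 and 29.6 CPM in the control library (2.49). Cacng8 showed the opposite pattern, with log2 ratios of -1.37 in the epilepsy library and -1.45 in the control library. Cnih2 was represented by 4 UMIs in the interneurons of each library. Cnih3, by contrast, was higher in interneurons in both libraries (log2 ratio 2.12 in the epilepsy library and 0.81 in the control library), on 25 and 36 interneuron UMIs.

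**Figure D4:**
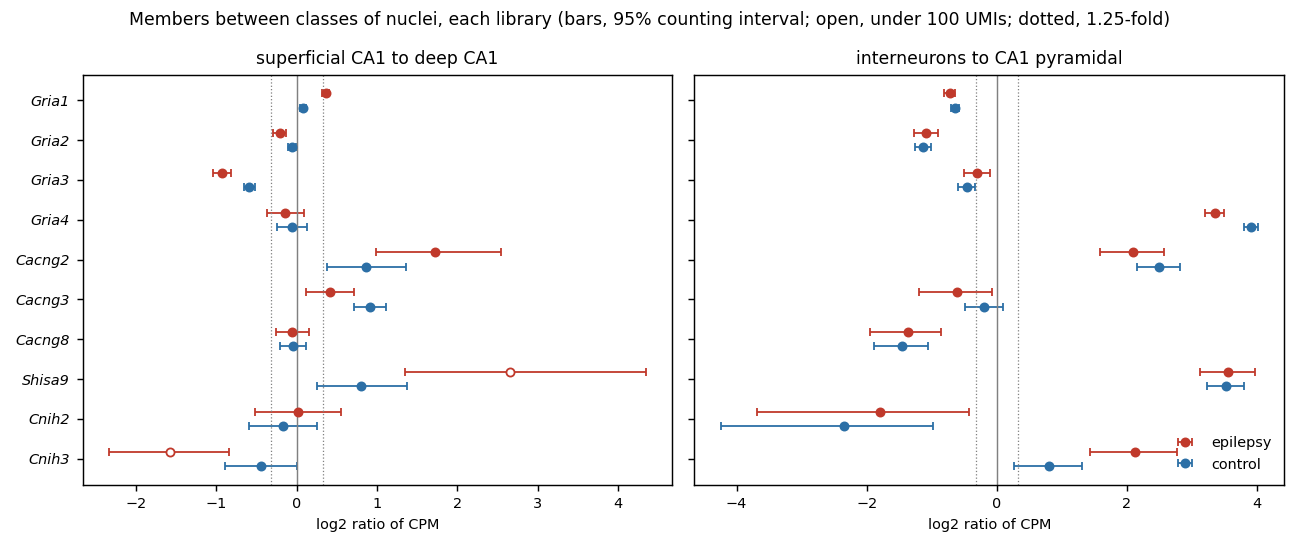
Log2 ratio of CPM (x axis) of superficial to deep CA1 (left) and of interneurons to CA1 pyramidal nuclei (right) for each gene (y axis), with the epilepsy library in red above the control library in blue; bars are 95% counting intervals and open points rest on under 100 UMIs. Gria4, Cacng2, Shisa9 and Cnih3 lie right of 0 in interneurons, and Gria3 lies left of 0 in superficial CA1, in both libraries.

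The interneuron families differed in their pore subunits. MGE interneurons, which include parvalbumin and somatostatin cells, were higher than CGE interneurons in Gria1, Gria3 and Gria4 in both libraries, 3 of the 4 genes with enough UMIs. Of the 356 genes that could be compared, 49.7% were past the fold threshold (27.5% higher and 22.2% lower). Gria3 stood at 1135 CPM in MGE and 181 CPM in CGE interneurons of the epilepsy library (log2 ratio 2.65, 1.95 to 3.44), and at 1303 and 290 CPM in the control library (2.17, 1.75 to 2.61). Gria1 stood at 4279 CPM in MGE and 1347 CPM in CGE interneurons of the epilepsy library, and at 3724 and 1600 CPM in the control library. Gria2 was not past the threshold in both libraries, with MGE to CGE log2 ratios of -0.35 (-0.75 to 0.05) in the epilepsy library and -0.03 (-0.30 to 0.25) in the control library. Gria2 therefore took a smaller share of the Gria UMIs in MGE interneurons, 8.98% in epilepsy and 10.2% in control, than in CGE interneurons, 27.0% in epilepsy and 22.3% in control.

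Shisa9 separated the families almost completely. It had 1 UMI in the MGE interneurons of each library, against 68 UMIs (684 CPM) in CGE interneurons of the epilepsy library and 161 UMIs (882 CPM) in those of the control library. A Shisa9 UMI was seen in 52.1% of epilepsy and 65.0% of control CGE nuclei, compared with 0.968% and 2.22% of oligodendrocytes. After thinning each nucleus to 1000 UMIs these shares were 37.8% and 39.7% in CGE nuclei, and 1.92% and 1.32% in oligodendrocytes. Both the raw and the thinned shares were higher in CGE nuclei than in oligodendrocytes.

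Between conditions, interneurons showed 1 of 7 genes past the fold threshold, Cacng3, against 28.8% of 1689 genes (13.7% higher and 15% lower). Cacng3 had 29 UMIs (87.8 CPM) in epilepsy and 104 UMIs (158 CPM) in control interneurons, a log2 ratio of -0.85 (-1.49 to -0.24). The median log2 ratio of the 7 genes was -0.21, against 0.01 over all genes. Gria4 stood at 1822 CPM in epilepsy and 2245 CPM in control interneurons (log2 ratio -0.30, -0.44 to -0.16), just inside the fold. Gria4 was past it in MGE interneurons, at 2435 CPM in epilepsy and 3128 CPM in control (-0.36, -0.54 to -0.19). In CGE interneurons Gria4 stood at 1136 and 1397 CPM (-0.30, -0.63 to 0.03), and Shisa9 had a log2 ratio of -0.37 (-0.80 to 0.05). The Gria1 share of Gria UMIs was 48.9% in epilepsy and 42.8% in control interneurons, and the Gria4 share was 28.9% and 33.6%. Interneuron counts are small. Cacng3 has too few UMIs to be counted when at least 200 are asked for, so that alternative does not test its ratio.

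The 14 epilepsy dentate granule nuclei had 67 Gria1 UMIs (5262 CPM), 1 Shisa9 UMI and 0 Gria4 UMIs. Control granule nuclei were high in Shisa9, at 730 CPM with a UMI in 71.2% of nuclei, against 24.3 CPM in control CA1 pyramidal nuclei. They also held Cnih3 at 110 CPM on 33 UMIs. Gria1 was at 3651 CPM, Gria2 at 1749 CPM, Gria3 at 654 CPM and Gria4 at 153 CPM. CA2/CA3 pyramidal nuclei held Shisa9 at 251 CPM in epilepsy and 200 CPM in control, with log2 ratios to CA1 pyramidal nuclei of 3.61 and 3.04, and held Gria4 at 307 and 455 CPM (0.78 and 1.60).

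Oligodendrocyte precursors, which receive synapses from neurons and express AMPA receptors, held Gria4 at 24 UMIs (798 CPM) in epilepsy and 19 UMIs (726 CPM) in control, 447% and 484% of the pyramidal level. Gria2 stood at 37 UMIs (1230 CPM) in epilepsy and 30 UMIs (1146 CPM) in control, 76.2% and 61.9% of the pyramidal level. Gria1 was at 17 UMIs in epilepsy and 7 UMIs in control, 11.1% and 5.98% of the pyramidal level. The Gria1 share of Gria UMIs was thus 17.9% in epilepsy and 10.1% in control precursors, far under that of pyramidal nuclei. Cacng2, Cacng3 and Cnih2 were at 0 UMIs in both libraries, which allows levels of up to 99.7 CPM in epilepsy and 115 CPM in control. Beside these, the 10 pyramidal markers stood at a median of 0% in epilepsy and 4.49% in control precursors, summing to 9.92% and 13.1%. The highest marker reached 36.2% in epilepsy and 83.6% in control. Gria2, Gria3, Gria4, Cacng8 and Shisa9 lay above the marker range in epilepsy, with Cacng8 on only 3 UMIs. In control only Gria4, Shisa9 and Cnih3 did, so control Gria2 lay within that range. Control Cnih3 was 1 UMI, under the floor of 3 counts, and its place above the range is not read.

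The wider pathway was read from 35 listed genes for other auxiliary subunits, biogenesis factors, scaffolds, secreted organisers and RNA-editing enzymes. In CA1 pyramidal nuclei 10 of the 27 with enough UMIs were past the fold threshold between conditions, 9 higher and 1 lower in the epilepsy library, with a median log2 ratio of 0.19. Over all genes 14.2% were higher and 14.1% were lower, with a median of -0.01. With TMM factors that median moved to -0.10. Some of the 9 higher genes lay near the threshold, such as Nptxr (0.35) and Abhd6 (0.38). How many of the 9 stay past it under TMM factors is not given here. By list, 2 of 5 other auxiliary subunits, 1 of 5 biogenesis genes, 4 of 10 scaffold and trafficking genes, 3 of 5 secreted organisers and 0 of 2 editing enzymes were past it. Prrt1, an auxiliary subunit also called SynDIG4, stood at 62.2 CPM in epilepsy and 35.7 CPM in control nuclei (log2 ratio 0.80, 0.58 to 1.02). Gsg1l, another auxiliary subunit, had a log2 ratio of 0.39, and Abhd6, which limits surface delivery of AMPA receptors, stood at 234 and 180 CPM (0.38). Among the secreted organisers, Olfm1 stood at 115 CPM in epilepsy and 86.7 CPM in control (0.41), Nptx1 at 15.6 and 10.8 CPM (0.54), and the pentraxin receptor Nptxr at 11.4 and 8.91 CPM (0.35, -0.14 to 0.83).

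Of the scaffold and trafficking genes, Epb41l1, which binds the Gria1 subunit, stood at 210 CPM in epilepsy and 167 CPM in control pyramidal nuclei (log2 ratio 0.33). Gripap1, a recycling endosome protein, stood at 117 CPM in epilepsy and 92.6 CPM in control nuclei (0.33). Akap5, a kinase anchor, stood at 6.19 CPM in epilepsy and 9.22 CPM in control nuclei (-0.58, -1.18 to 0.00). Prrt1 was also higher in both sublayers of the epilepsy library, with log2 ratios of 0.76 in superficial and 0.76 in deep nuclei. In deep CA1 Epb41l1 stood at 271 CPM in epilepsy and 177 CPM in control (0.61), and in superficial CA1 Olfm1 stood at 151 and 105 CPM (0.52). The scaffold Dlg2 was lower in superficial nuclei (5801 CPM in epilepsy and 6878 CPM in control, log2 ratio -0.25) and in interneurons (5182 and 5938 CPM, -0.20), within the threshold. In interneurons the largest excesses by counting interval were those of Nsf, which binds Gria2, at 560 and 410 CPM (0.45), and Olfm3, at 166 and 102 CPM (0.71).

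Genes whose level across 11 classes (those of no family or sublayer left out) most resembled that of each member were listed by the lower of the 2 libraries' Pearson correlations of log2(CPM + 10), with no test, since classes of 1 library share its free RNA and depth. Syn1, Dlgap2 and St6galnac5 were most like Gria1 (r of at least 0.927), and Cacna1e, Nell2 and Kcnd2 most like Gria2 (at least 0.86). Myo16, Sgcz and Robo1 were most like Gria4 (at least 0.88), and Fam135b, Rock2 and Rbfox1 most like Gria3 (at least 0.76). For the TARPs the leading genes were Kcnc1, which encodes a fast potassium channel subunit, for Cacng2 (0.87), Abcb8 for Cacng3 (0.91) and Nptn for Cacng8 (0.90). Grid1 led for Shisa9 (0.77), Dnajb5 for Cnih2 (0.90) and Mkx for Cnih3 (0.80). These are descriptions over few classes and say nothing of shared function.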

How the data were processed

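Single-nucleus libraries of dorsal CA1 were analysed, 1 per condition. The authors deposited raw UMI counts per gene and nucleus, whole numbers with no normalization. FastQC and Cell Ranger 2.2.0 with the GRCm38 build are named, per the submitters' processing notes; the annotation, the selection of barcodes and the counting of intronic reads are not given in the sources used here. Unspliced transcripts and gene length may affect counts, so CPM levels were not ranked between genes, and shares of summed UMIs were compared across classes and libraries. No column of per-sample values was left unused (0).

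Nuclei needed 200 detected genes and under 5% mitochondrial UMIs, which removed 0. Scrublet's automatic threshold marked 12 epilepsy nuclei (0.390%) and 14 control nuclei (0.382%), too few to be useful, so the top 3% by score (92 and 110) were removed. Scanpy 1.11.5 and leidenalg 0.10.2 (python 3.11.15, numpy 2.4.6) clustered 2000 variable genes, 30 components and 20 neighbours at resolution 1. Names came from marker lists, by a rule set after the clusters had been seen; 20 epilepsy and 55 control nuclei stayed unnamed.

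UMIs were summed per class and library and scaled to CPM, with exact Poisson, conditional binomial or Clopper-Pearson 95% intervals (scipy 1.17.1). A ratio needed 100 UMIs (over both libraries, or over both classes in each library) and, between conditions, 30 nuclei per library. There are no tests, since nuclei are not replicates. A floor of 3 counts stands for a count of 0. The calculation was checked on simulated counts. Alternatives covered TMM factors (edgeR 4.0.16, R 4.3.3), thinning, filters, folds, clustering and doublets. All 10 members are named; pathway genes are named where past the fold in CA1 pyramidal nuclei, and elsewhere for the 2 furthest each way by interval bound. One pathway gene that this rule names is counted but not reported here. The members and lists were chosen with earlier results of these data known. All 45 identifiers matched GENCODE M21.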

Additional observations from a re-analysis of the deposited data

Results flagged for a closer look

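Gria4 lay on opposite sides of 0 between conditions in CA1 pyramidal nuclei and interneurons. Its log2 ratio of epilepsy to control was 0.25 in CA1 pyramidal nuclei, 0.32 in deep CA1 (just inside the fold threshold) and 0.23 in superficial CA1, but -0.30 in interneurons. It was flagged because the CA1 pyramidal and interneuron values point in opposite directions. The difference was not tested, since each condition has 1 library. CA2/CA3 pyramidal nuclei lay on the interneuron side, with Gria4 lower in the epilepsy library past the threshold (61 epilepsy and 66 control UMIs). In oligodendrocytes Gria4 was higher in the epilepsy library past the threshold (90 and 68 UMIs).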

How the results depend on the processing

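No paired analysis was possible because each condition has 1 library. Of 587 single-gene ratios under the alternatives, 532 stayed within the counting interval of the reported value and 55 moved beyond it. Of the 55, 18 came with TMM factors, 15 with thinning and 11 with free RNA taken off the interneuron sums. With free RNA taken off, only 7 stayed within. Sign changed in 0 ratios past the fold threshold and in 20 small ones. The largest of these was that of Shisa9 in pyramidal nuclei (0.12 after thinning). Thinned to 1000 UMIs, the genes past the fold numbered 1 in deep CA1 (0 as reported), 2 in superficial CA1 (4), 0 in interneurons (1), 1 for superficial to deep (3) and 5 for interneurons to pyramidal (8). Thinning left fewer ratios with enough UMIs, 35 within and 15 beyond, against 71 with members kept among the clustering genes. No ratio still formed between conditions in superficial CA1 or interneurons crossed the threshold. The lower counts there thus do not show ratios shrinking to within it. A minimum of 50 UMIs gave 1 in deep CA1, 2 in interneurons and 5 for superficial to deep. A minimum of 200 gave 0 in interneurons, where Cacng3 then had too few UMIs to be counted. At 1.5-fold 1 gene was past the fold in CA1 pyramidal and 1 in superficial CA1, and at 2-fold 0 between sublayers. TMM factors gave 3 in interneurons and moved the median of all genes to -0.29 (epilepsy) and -0.24 (control) for interneurons to pyramidal, and to -0.10 between conditions in pyramidal nuclei. Over the 9 named classes with at least 30 nuclei in each library, 8 genes had the same highest class in both libraries, and 5 with at least 500 detected genes per nucleus. The control interneuron Gria4 share of 33.6% was 31.5% with doublets kept and 32.0% with nuclei weighted equally. Cacng2 in superficial CA1 fell within the threshold under 3 alternatives (log2 0.28, 0.18 and 0.27). TMM factors put Gria4 (-0.37) and Cacng2 (-0.36) in interneurons and Gria2 in superficial CA1 (-0.36) past it, and thinning put Cacng2 in CA1 pyramidal (0.49) and Cacng8 in deep CA1 (0.42) past it. The alternatives on free RNA, nuclei of no sublayer and single superficial clusters were added after seeing the data. A single library per condition limits every comparison, and small UMI counts limit precursors and granule nuclei.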

Other observations

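Of 23 listed pathway genes with enough UMIs, 13 were past the fold threshold between interneurons and pyramidal nuclei in both libraries (6 higher, 7 lower), against 43.6% of all genes. Grip1, Cacng4 and Adarb1 were chosen for description after seeing their values. Grip1, a scaffold that binds the Gria2 and Gria3 tails, was at 5890 CPM in interneurons and 180 CPM in pyramidal nuclei of the epilepsy library (log2 ratio 5.04), and at 5698 and 157 CPM in the control library (5.18). Cacng4, a TARP, was at 1130 CPM in epilepsy and 993 CPM in control oligodendrocyte precursors, against 1.89 and 0.311 CPM in pyramidal nuclei. Adarb1, the enzyme that edits the Gria2 Q/R site, was at 179 CPM in interneurons and 61.0 CPM in pyramidal nuclei of the epilepsy library (log2 ratio 1.55), and at 146 and 53.8 CPM in the control library (1.44). Between conditions Adarb1 was within the threshold over all pyramidal nuclei (log2 ratio 0.18) but past it in deep CA1, at 79.1 CPM in epilepsy and 52.8 CPM in control (0.59, 0.21 to 0.96), and in the superficial Tenm3 cluster (0.49, -0.02 to 0.99). Adar was within it in each of these.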
